A study of Mus musculus with 9 samples.

Results

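The receptors for interleukin 3 (IL-3), interleukin 5 (IL-5) and granulocyte-macrophage colony-stimulating factor (GM-CSF) are built from 5 chains in the mouse, and their transcripts were followed here in 3 myeloid cell lines. The chains were taken by gene symbol from the deposited table: *Il3ra*, *Il5ra*, *Csf2ra*, *Csf2rb* and *Csf2rb2*, 5 genes of 54347 listed. All 5 were among the 13082 genes that could be tested, although *Il5ra* passed the filter on low counts only through its counts in Hox-WT. Hox-WT and Hox-URE are labelled hematopoietic progenitor lines, made from c-Kit+ bone marrow cells of a WT and of a URE mouse by immortalization with a Hoxb8 fusion protein that works only while estradiol is present. The URE mouse lacks, on both alleles (UREd/d), an upstream regulatory element of *Spi1*, which encodes the transcription factor PU.1. URE-AML, labelled B22 and AML blast-like, is a UREd/d line that grew out of leukemic blasts during repeated culture with IL-3. All 3 lines were grown in the same medium, with 20% FCS, IL-3, IL-6 and SCF at 10 ng/ml each, and β-estradiol, so the controls were exposed to IL-3 as well. Poly-A RNA was sequenced from 3 libraries of each line. Each genotype and stage is 1 line, separate cultures are not named in the labels, and p-values measure only the spread between these libraries.

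Each of these receptors pairs an alpha chain, which binds its own cytokine and gives the receptor its specificity, with a beta chain that carries the signal into the cell. *Il3ra*, *Il5ra* and *Csf2ra* encode the alpha chains for IL-3, IL-5 and GM-CSF. *Csf2rb* encodes the common beta chain used by all 3 receptors, and *Csf2rb2* encodes a second beta chain, found in the mouse, that works with IL-3 only. Binding activates JAK2 on the beta chain and, through it, STAT5, which drives survival and proliferation of myeloid progenitors, mast cells, basophils and eosinophils.

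The beta chain genes are near copies, which bears on every value given for them separately. In GENCODE M21 on GRCm38, *Csf2rb* (ENSMUSG00000071713) lies at chr15:78325752-78353847 on the plus strand with 15 exons, and *Csf2rb2* (ENSMUSG00000071714) at chr15:78282507-78305721 on the minus strand with 14 exons. They point away from each other with 20030 bases between them. Their coding sequences, of 2688 and 2634 bases, were identical at 95.2% of aligned positions. Of all 31-base words in the coding sequence of *Csf2rb*, 40.5% also stood somewhere in the annotated transcripts of *Csf2rb2*, and of those in the whole transcript 28.0%. A read from the shared stretches cannot be assigned to either gene by its own sequence. Among windows of 120 aligned coding bases without gaps, the one with the most mismatches shows part of what the separation rests on. Its 22 mismatched bases are in capitals (coding bases 309 to 428 of *Csf2rb* and 312 to 431 of *Csf2rb2*):

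Csf2rb: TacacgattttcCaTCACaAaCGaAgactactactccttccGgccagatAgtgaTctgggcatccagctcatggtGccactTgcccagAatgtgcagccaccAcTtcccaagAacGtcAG

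Csf2rb2: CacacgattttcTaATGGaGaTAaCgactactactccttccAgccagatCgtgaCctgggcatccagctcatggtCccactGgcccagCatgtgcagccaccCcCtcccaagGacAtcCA

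At the other extreme, 242 coding bases (2083 to 2324 in both genes) had no difference, and a read that falls inside them fits both genes alike:

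Csf2rb and Csf2rb2: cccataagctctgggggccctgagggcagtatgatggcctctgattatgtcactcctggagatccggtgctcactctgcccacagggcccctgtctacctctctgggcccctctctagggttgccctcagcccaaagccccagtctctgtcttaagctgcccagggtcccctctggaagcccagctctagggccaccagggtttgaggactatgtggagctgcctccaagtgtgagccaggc

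The alpha chain genes stand apart from these and from each other. *Il3ra* (ENSMUSG00000068758) lies at chr14:14346275-14356011 on the plus strand with 12 exons, overlapped by the antisense gene *Gm48860*, *Il5ra* (ENSMUSG00000005364) at chr6:106710357-106749037 on the minus strand with 13 exons, and *Csf2ra* (ENSMUSG00000059326) at chr19:61223957-61228429 on the minus strand with 12 exons. *Il3ra* shared none of its 31-base words with *Il5ra* or *Csf2ra*. RefSeq promoter windows (250 bases before to 50 after the start, GRCm38.p6) were found for 4 of the 5 genes, not for *Csf2rb*. They were searched on both strands for the PU.1 core GAGGAA, the ETS core GGAAGT, the RUNX core TGTGGT, the GATA motif AGATAA and the STAT motif TTCNNNGAA, which stood in 28.3%, 23.8%, 16.8%, 11.2% and 8.30% of all 32851 windows. The bases upstream of the RefSeq start are shown for *Il5ra*, *Csf2ra* and *Csf2rb2*, with the matches in capitals:

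Il5ra, chr6:106749038-106749137, minus strand: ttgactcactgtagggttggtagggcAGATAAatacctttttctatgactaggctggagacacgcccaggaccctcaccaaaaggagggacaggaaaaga

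Csf2ra, chr19:61228419-61228518, minus strand: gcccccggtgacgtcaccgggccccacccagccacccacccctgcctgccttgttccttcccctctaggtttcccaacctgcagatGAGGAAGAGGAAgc

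Csf2rb2, chr15:78305722-78305901, minus strand: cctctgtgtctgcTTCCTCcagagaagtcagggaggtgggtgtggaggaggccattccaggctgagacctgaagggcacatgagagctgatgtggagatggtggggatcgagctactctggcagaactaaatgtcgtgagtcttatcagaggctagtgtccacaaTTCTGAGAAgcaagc

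The *Csf2ra* window held the PU.1 core as an adjacent pair, at -14 and -8 from the start, and the GENCODE gene, which extends to position 61228429, includes the second match and the end of the first. The *Il5ra* window held the GATA motif at -74 and the PU.1 core at 42 bases after the start. The *Csf2rb2* window held the PU.1 core on the opposite strand (TTCCTC) at -167, the STAT motif at -15, and after the start an overlapping match to the PU.1 core and the ETS core. The *Il3ra* window held a single match, the ETS core at -139, in bases that GENCODE places inside the first exon of a longer transcript. No window held the RUNX core. These are matches of letters, not measured binding.

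The libraries held 20331064 to 28588718 counts, and 3 counts, used here as the floor of detection, stood at 0.104 to 0.153 CPM (counts scaled to the library's size), which covers counting error only. *Spi1*, whose element is deleted, had 2791 to 2932 counts in the Hox-WT libraries. In Hox-URE it had at most 1 count, and 62 to 148 counts remained in URE-AML, so both UREd/d lines stood below Hox-WT. Of the progenitor markers, *Kit* was present in all 3 lines, whereas *Cd34* was at 0 to 1 counts in URE-AML. T cell markers were at 0 in all libraries, and summed B cell markers reached at most 2.61 CPM. Summed markers of neutrophil precursors (9 genes) were 5613 to 9042 CPM for Hox-WT, 2618 to 4003 CPM for Hox-URE and 11270 to 25957 CPM for URE-AML. In Hox-URE nearly all of it was *Ctsg*, with a mean of 3325 CPM there and 1993 CPM in Hox-WT (not called), whereas the other 8 fell against Hox-WT, *Mpo* from 5042 to 5.04 CPM, and 4 of 9 were at or under the floor. In URE-AML *Mpo* was lower than in Hox-WT too, at a mean of 192 CPM, whereas the other 8 were called higher. Of these, *Ltf* and *Camp* passed the filter through URE-AML alone. Summed markers of monocytes (5 genes, with *Csf1r* and *Klf4* at or under the floor in Hox-URE) were 20.8 to 23.6, 840 to 939 and 13.3 to 22.5 CPM. The sum in Hox-URE was almost wholly *Ccr2*, with a mean of 885 CPM there and 12.7 CPM in Hox-WT, whereas *Irf8* fell from 7.44 to 0.170 CPM. *Ly86* and *Csf1r* were called lower too, but passed the filter through Hox-WT alone, so that these differences were built into their selection. Markers of erythroid cells and megakaryocytes (5 genes) summed to 6.49 to 8.18, 15.9 to 41.7 and 1.17 to 2.88 CPM, of which *Itga2b* made 28.4 CPM on average in Hox-URE, whereas *Pf4* and *Gata1* fell there. *Ccr2* and *Itga2b* were thus highest in Hox-URE, as were *Il3ra* and both beta chains described next, and their part in those levels was not tested. Because these are bulk libraries, fewer cells of a type and less RNA per cell cannot be told apart.

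Relative to Hox-WT, both UREd/d lines had more transcript of the IL-3 receptor alpha chain and of the common beta chain, and less of the alpha chains for GM-CSF and IL-5. A transcript counted as called where its fold change exceeded 1.5 and its p, adjusted by Benjamini-Hochberg over all genes tested, was under 0.05 (edgeR quasi-likelihood test). In Hox-URE against Hox-WT all 5 chains were called, 3 higher and 2 lower, where 37.2% of all genes tested were called (21.3% higher, 15.9% lower), and the libraries of all 5 did not overlap, as for 60.3% of all genes. In URE-AML against Hox-WT 4 of 5 were called, 2 higher and 2 lower, against 43.2% of all genes (23.0% higher, 20.2% lower), and 4 of 5 did not overlap, against 67.6%. In URE-AML against Hox-URE 4 of 5 were called, 1 higher and 3 lower, against 42.7% of all genes (20.3% higher, 22.4% lower), and 4 of 5 did not overlap, against 62.8%. *Il3ra*, *Csf2ra* and *Csf2rb* were called in all 3 comparisons, as were 12.8% of all genes. With so many genes called between these lines, the number of chains called says little, and the directions and sizes are given gene by gene. The comparisons share lines and are not independent of each other.

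**Figure D1:**
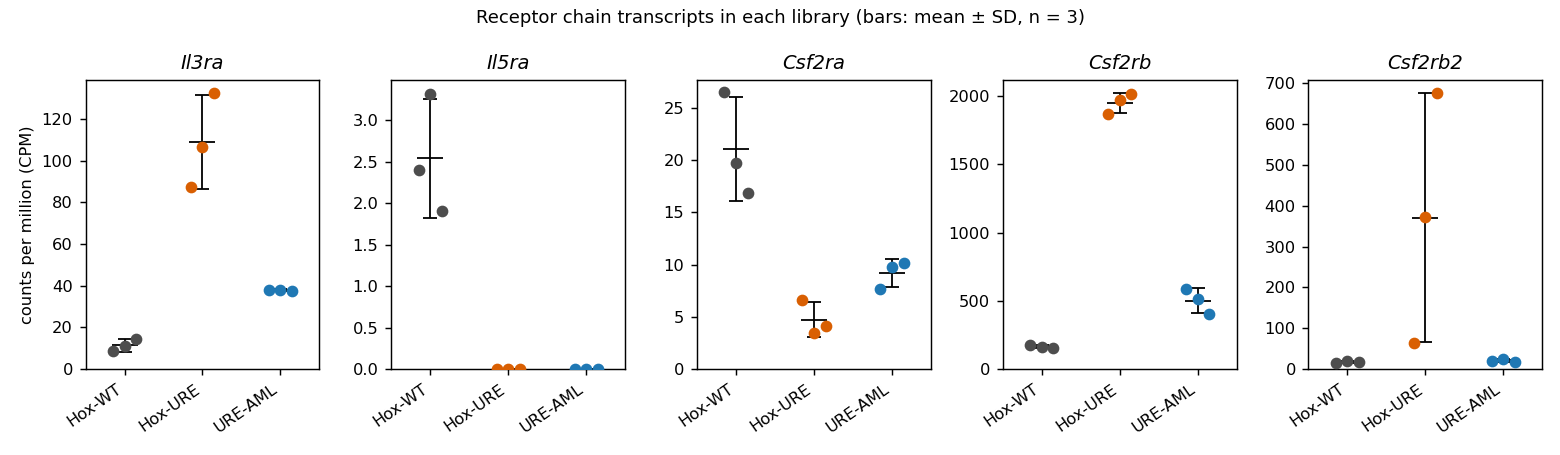
CPM of the 5 receptor chains in each of the 9 libraries, on linear axes that start at 0 and differ between panels, with mean ± SD of 3 libraries. *Il3ra* and *Csf2rb* are highest in Hox-URE and intermediate in URE-AML, *Csf2ra* runs the other way, *Il5ra* is seen in Hox-WT alone among these libraries, and *Csf2rb2* spreads from 64.8 to 675 CPM in Hox-URE.

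*Il3ra*, the alpha chain that binds IL-3, was measured at 8.43, 11.2 and 14.3 CPM in the Hox-WT libraries 1 to 3. It was measured at 87.5, 107 and 133 CPM in Hox-URE and at 38.1, 38.0 and 37.3 CPM in URE-AML. The groups did not overlap, with Hox-URE highest, URE-AML between and Hox-WT lowest. Hox-URE exceeded Hox-WT in *Il3ra* 9.63-fold (log2 3.27 ± 0.20, SE, edgeR adjusted p = 8.09e-07). URE-AML exceeded Hox-WT 3.35-fold (log2 1.74 ± 0.20, SE, edgeR adjusted p = 3.3e-05) and stood 2.88-fold below Hox-URE (log2 -1.53 ± 0.19, SE, edgeR adjusted p = 7.09e-05). Among the libraries of URE-AML *Il3ra* hardly varied, the highest being 1.02 times the lowest, against 1.69 times in Hox-WT and 1.51 times in Hox-URE. In Hox-WT only 2.25% of the 8187 genes with a mean of at least 10 CPM had a ratio at least as wide. Summed markers of basophils and mast cells, which respond to IL-3, summed to 607, 786 and 928 CPM in Hox-WT 1 to 3 and 1804, 3960 and 6371 CPM in Hox-URE 1 to 3, the order of *Il3ra* in each. In Hox-WT this was the order of *Cpa3* (362, 565 and 717 CPM) and *Mcpt8* (5.40, 6.96 and 13.3 CPM), whereas *Hdc* (124, 99.1 and 89.5 CPM) and *Ms4a2* (5.36, 3.14 and 2.35 CPM) ran the other way and *Gata2* stayed between 106 and 112 CPM. In URE-AML, where *Il3ra* was 3.35-fold above Hox-WT, those markers summed to 43.5 to 78.6 CPM, below every Hox-WT library. *Cpa3* averaged 1.37 CPM there, and 4 of 6 markers tested were called lower than in Hox-WT, against 20.2% of all genes. *Mcpt8* was called higher, with means of 8.56 CPM in Hox-WT and 32.5 CPM in URE-AML. *Cd34* and *Ctsg*, from the lists of progenitor and neutrophil precursor markers, also stood in the order of *Il3ra* in both Hox lines. So did the summed progenitor, neutrophil precursor and B cell markers, whereas *Kit* (169, 192 and 162 CPM in Hox-WT, 50.7, 42.9 and 35.5 CPM in Hox-URE) did so in neither. The part of any of these cells in the *Il3ra* levels was not tested. Although libraries were stranded, the strand setting used in counting is not given in the sources used here, so reads of *Gm48860* may be included.

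*Csf2ra*, the alpha chain for GM-CSF, went in the opposite direction. Its levels were 26.5, 19.7 and 16.8 CPM in Hox-WT, 6.59, 3.44 and 4.14 CPM in Hox-URE, and 7.71, 9.80 and 10.2 CPM in URE-AML. Every Hox-WT library was above every UREd/d library, and the UREd/d lines did not overlap each other. In *Csf2ra*, Hox-URE stood 4.42-fold below Hox-WT (log2 -2.15 ± 0.26, SE, edgeR adjusted p = 7.94e-05). URE-AML stood 2.28-fold below Hox-WT (log2 -1.19 ± 0.25, SE, edgeR adjusted p = 0.00215). Between the UREd/d lines it was 1.94-fold higher in URE-AML (log2 0.96 ± 0.26, SE, edgeR adjusted p = 0.0094). This last call was lost when the test itself required a fold change over 1.5 (adjusted p = 0.0886, edgeR glmTreat). A remainder of transcript was thus measured in Hox-URE, at 81 to 181 counts per library, where *Spi1* was at 0 or 1 counts.

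*Il5ra*, the alpha chain for IL-5 that marks eosinophils and some B cells, was the chain with the lowest level per kilobase of transcript in each line. It had 64, 93 and 55 counts in Hox-WT (2.54 ± 0.720 CPM, SD, n = 3) and 0 in all 6 UREd/d libraries, so that it was detected in Hox-WT only. Set against the floor of 3 counts in the shallowest library of each line, its decrease was at least 16.6-fold for Hox-URE and at least 17.8-fold for URE-AML (edgeR adjusted p = 0.000209 and 0.000159). As *Il5ra* entered the test through Hox-WT alone, a difference from lines at 0 was built into its selection. Between the UREd/d lines, both at 0, no fold is given. Markers of eosinophils did not follow *Il5ra* across all 3 lines. Summed over 9 genes they were 18.5 to 22.8 CPM in Hox-WT, nearly all of it *Siglecf* (mean 18.3 CPM) and 4 of 9 at or under the floor, and 0.874 to 2.20 CPM in Hox-URE, where 7 of 9 were at or under the floor, among them *Epx*, *Prg2* and *Prg3*, which encode granule proteins. In URE-AML, where *Il5ra* was at 0 too, they summed to 14.6 to 55.7 CPM and 1 of 9, *Alox15*, was at or under the floor. *Prg2* fell in Hox-URE and rose in URE-AML against Hox-WT, with means of 0.939 CPM in Hox-WT and 6.62 CPM in URE-AML. The URE-AML libraries 1 to 3 stood at 3.19, 2.33 and 14.3 CPM. The other members tested, *Siglecf*, *Prg3*, *Ccr3*, *Epx* and *Ear6*, each passed the filter only because of its counts in a single line, so no direction is read from them.

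*Csf2rb*, the common beta chain, had the highest level per kilobase of transcript in every library. It stood at 174, 163 and 156 CPM in Hox-WT, 1870, 1969 and 2016 CPM in Hox-URE, and 584, 513 and 402 CPM in URE-AML. The 3 lines did not overlap, and the order was that of *Il3ra*. Hox-URE exceeded Hox-WT in *Csf2rb* 11.9-fold (log2 3.57 ± 0.14, SE, edgeR adjusted p = 4.59e-08). URE-AML exceeded Hox-WT 3.04-fold (log2 1.61 ± 0.13, SE, edgeR adjusted p = 3.39e-06) and stood 3.91-fold below Hox-URE (log2 -1.97 ± 0.13, SE, edgeR adjusted p = 9.4e-07). Within Hox-URE the libraries were close together, the highest being 1.08 times the lowest.

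*Csf2rb2*, the beta chain specific to IL-3, behaved differently from *Csf2rb* in URE-AML and within Hox-URE. Its levels were 15.9, 20.4 and 17.3 CPM in Hox-WT, 64.8, 372 and 675 CPM in Hox-URE, and 19.5, 25.2 and 18.2 CPM in URE-AML. All Hox-URE libraries were above all others, whereas URE-AML overlapped Hox-WT. *Csf2rb2* rose in Hox-URE over Hox-WT (log2 4.37 ± 0.67, SE, edgeR adjusted p = 0.000368), by 3.60 when Hox-URE library 3 was left out and 4.86 when Hox-URE library 1 was. In URE-AML it did not pass the test against Hox-WT (log2 0.23 ± 0.61, SE, edgeR adjusted p = 0.770), and against Hox-URE it was lower (log2 -4.14 ± 0.66, SE, edgeR adjusted p = 0.000389), by -3.38 without Hox-URE library 3. The spread within Hox-URE was unusual. The highest library was 10.4 times the lowest, against a median of 1.24 times over the 8318 genes with a mean of at least 10 CPM there, and 18 other genes (0.216%) spread at least as widely. The order of the Hox-URE libraries for *Csf2rb2* was also that of the summed basophil and mast cell markers given above, led by the mast cell protease gene *Cpa3* at 768, 2789 and 4437 CPM. The order was not particular to that list. Summed progenitor (671, 1096 and 1141 CPM), neutrophil precursor (2618, 3777 and 4003 CPM), erythroid and megakaryocyte (15.9, 30.7 and 41.7 CPM) and B cell markers (1.09, 2.57 and 2.61 CPM) shared it, and summed monocyte markers (840, 939 and 877 CPM) did not. Within the basophil and mast cell list *Mcpt8*, *Hdc* and *Ms4a2* shared the order in Hox-URE, and *Gata2* (209, 198 and 244 CPM) and *Prss34* (591, 442 and 1084 CPM) did not. Of single markers of other cell types, *Cd34* (620, 1053 and 1106 CPM), *Ctsg* (2483, 3633 and 3860 CPM), *Prtn3* (115, 130 and 133 CPM) and *Itga2b* (15.1, 29.8 and 40.3 CPM) shared it. So did *Cd79a* (1.09, 2.57 and 2.61 CPM) and *Pf4* (0.182, 0.456 and 0.460 CPM) at low levels, whereas *Kit* and *Mpo* (10.2, 2.82 and 2.15 CPM) ran the other way. Of the 9 basophil and mast cell markers, *Fcer1a*, *Tpsb2* and *Cma1* were at or under the floor in both Hox lines, and in Hox-URE *Cpa3*, *Mcpt8*, *Hdc* and *Gata2* rose over Hox-WT, as did *Prss34*, which passed the filter through Hox-URE alone. The part of any such cells in the spread of *Csf2rb2* was not tested.

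**Figure D2:**
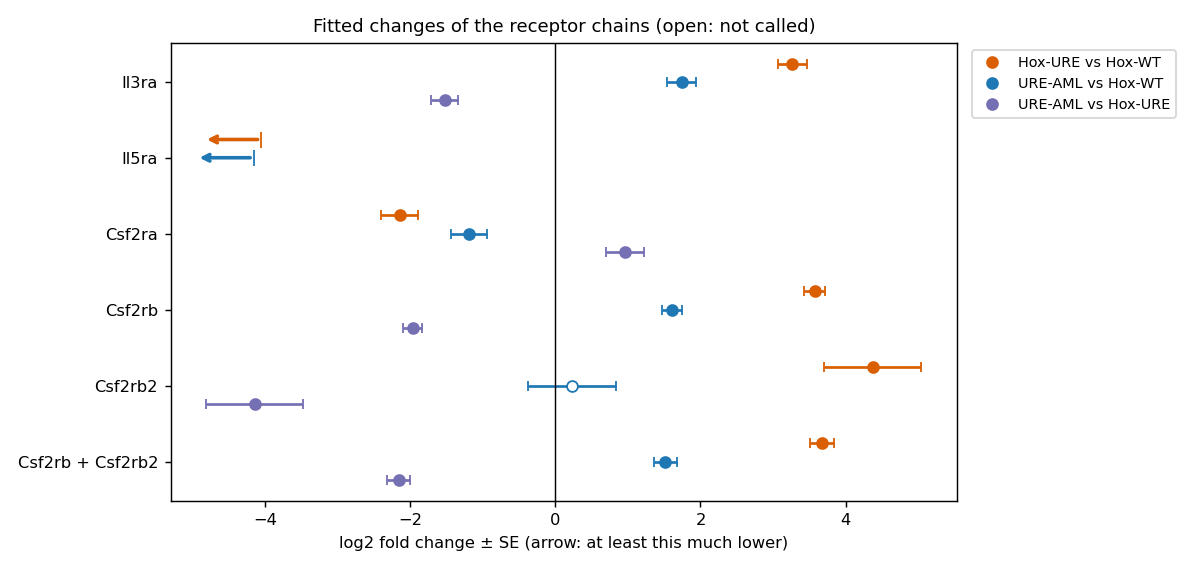
Fitted log2 fold changes with SE from edgeR for 4 chains and for the summed beta chain counts in the 3 comparisons, with filled points for called changes. *Il5ra* is drawn as arrows from its bound, and *Csf2rb2* in URE-AML against Hox-WT is the open point, at 0.23.

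Because reads can be split between the near copies, the sum of *Csf2rb* and *Csf2rb2* was also tested as if it were 1 gene. The summed beta chains stood at 182 ± 8.27 CPM in Hox-WT, 2322 ± 379 CPM in Hox-URE and 520 ± 92.9 CPM in URE-AML (SD, n = 3 each). Relative to Hox-WT the sum rose 12.8-fold in Hox-URE (log2 3.67 ± 0.17, SE, edgeR adjusted p = 1.1e-07) and 2.86-fold in URE-AML (log2 1.52 ± 0.16, SE, edgeR adjusted p = 1.76e-05). The rise of beta chain transcript in both UREd/d lines therefore did not hang on how reads were divided. Of the beta chain counts, *Csf2rb2* took 8.38%, 11.2% and 9.99% in Hox-WT and 3.24%, 4.69% and 4.33% in URE-AML, without overlap. The difference of -5.75 percentage points had a two-sided exact permutation p = 0.1, the smallest that 3 against 3 libraries can give. In Hox-URE its share was 3.35%, 15.9% and 25.1%, reaching from the URE-AML range to above all Hox-WT libraries. The mean share was 4.94 percentage points above Hox-WT (exact permutation p = 0.6, two-sided), and -0.223 points without Hox-URE library 3, so no direction is read from it.

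Levels of different chains can be compared only per transcript length. With the median length of each gene's coding transcripts, the alpha chains together stood at 22.7 ± 0.467, 99.2 ± 19.4 and 38.6 ± 0.550 CPM per kilobase in the order Hox-WT, Hox-URE, URE-AML (SD, n = 3). The beta chains together stood at 83.2 ± 4.11, 1028 ± 111 and 245 ± 44.3 CPM per kilobase. Beta chain transcript thus exceeded alpha chain transcript in every library, by 3.66 ± 0.160 times in Hox-WT, 10.5 ± 0.916 times in Hox-URE and 6.35 ± 1.20 times in URE-AML, without overlap between lines. With the longest transcript of each gene the ratios were lower, at 2.43 to 2.60, 9.38 to 10.1 and 4.17 to 6.21, in the same order. The makeup of the alpha chain transcript differed between lines. *Csf2ra* made up 51.0 ± 11.3% of alpha chain transcript per kilobase in Hox-WT and *Il3ra* 44.1 ± 11.6%, with overlapping ranges. In Hox-URE *Il3ra* made up 97.2 ± 1.47% and in URE-AML 86.8 ± 1.75%. By the longest transcripts the share of *Il3ra* was 22.8 to 43.7% for Hox-WT, 92.9 to 96.9% for Hox-URE and 78.3 to 82.9% for URE-AML.

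**Figure D3:**
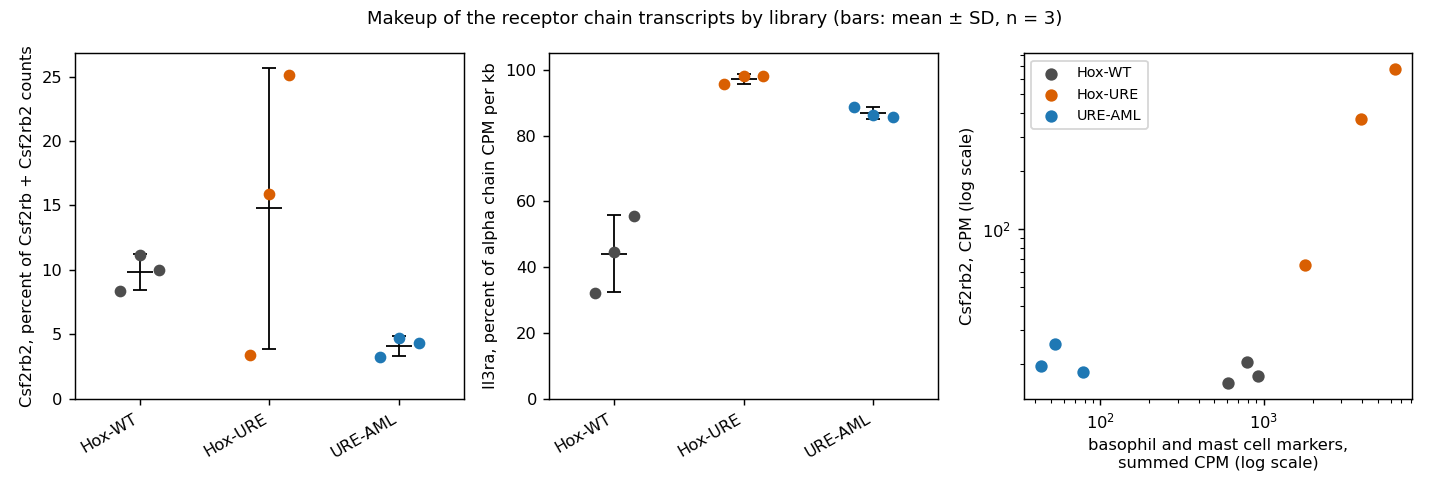
Left and middle, the percent of beta chain counts assigned to *Csf2rb2* and the percent of alpha chain CPM per kilobase from *Il3ra* in each library, with mean ± SD of 3 libraries. Right, *Csf2rb2* CPM against summed basophil and mast cell marker CPM, both on log scales, where the 3 Hox-URE libraries spread along both axes.

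Across the 9 libraries, the log2 CPM of *Il3ra* and *Csf2rb* had a Pearson's r of 0.97, and *Csf2ra* had an r of -0.98 with *Il3ra*. These libraries fall into 3 lines, so such values describe the differences between lines and carry no p. Among all genes tested, those most like *Il3ra* were *Lonp2*, a peroxisomal protease, *Itgal*, the alpha chain of the integrin LFA-1, and *Lama5*, a laminin chain (r of 0.998, 0.994 and 0.992). For *Csf2rb* they were *Prkar2b*, *Srxn1* and *Ano10* (r of 0.996, 0.996 and 0.995), and *Prkar2b*, a regulatory subunit of protein kinase A, averaged 117, 472 and 218 CPM in that order of lines. For *Csf2rb2* they were *Pcx*, *Gm32511* and *Slc25a11* (r of 0.987, 0.986 and 0.985), of which *Pcx*, pyruvate carboxylase, averaged 4.24, 39.8 and 4.21 CPM. For *Csf2ra* they were *Pigx*, *Hdac2* and *Tra2a* (r of 0.983, 0.982 and 0.981). The genes most like *Il5ra*, *Gm29103*, *Lrig3* and *Pde1b* (r of 1.00, 0.999 and 0.998), were likewise at 0 in both UREd/d lines.

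The genes next to the beta chain pair did not share its pattern. On the side of *Csf2rb2*, the nearest tested gene was *Ncf4*, a subunit of the phagocyte oxidase, which against Hox-WT had log2 fold changes of 0.04 (Hox-URE) and 1.23 (URE-AML) (edgeR adjusted p = 0.893 and 0.000776). Beyond it, *Ift27* was lower in both lines (-1.47 and -2.16, edgeR adjusted p = 0.000221 and 1.32e-05), and *Eif3d* was not called (0.05 and -0.28). On the side of *Csf2rb*, *Tst* had 0.14 and -1.79 (edgeR adjusted p = 0.368 and 1.06e-06), *Mpst* was not called (0.50 and 0.34) and *Kctd17* was lower (-3.26 and -3.65, edgeR adjusted p = 1.29e-07 and 3.25e-08). Thus none of the 3 nearest tested genes on either side was called higher in Hox-URE, where both beta chain genes were. Within 1000 kb of the pair, 10 of 36 other tested genes rose in Hox-URE over Hox-WT and 4 fell. The median log2 fold change of these 36 was 0.27. Over the 511 tested genes of chromosome 15 the median was 0.33 in Hox-URE against Hox-WT, with 169 called higher and 50 lower. Both sets of counts are to be read against 21.3% up and 15.9% down for the whole fit. The median over all genes tested was near 0. In URE-AML the chromosome's median against Hox-WT was near 0 (118 higher, 116 lower, where 23.0% and 20.2% of all genes were). Against Hox-URE it was -0.39 (63 higher, 182 lower, where 20.3% and 22.4% of all genes were). The part of the shift in Hox-URE in the levels of the beta chain pair, whose own changes over Hox-WT were 3.57 and 4.37, was not tested.

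**Figure D4:**
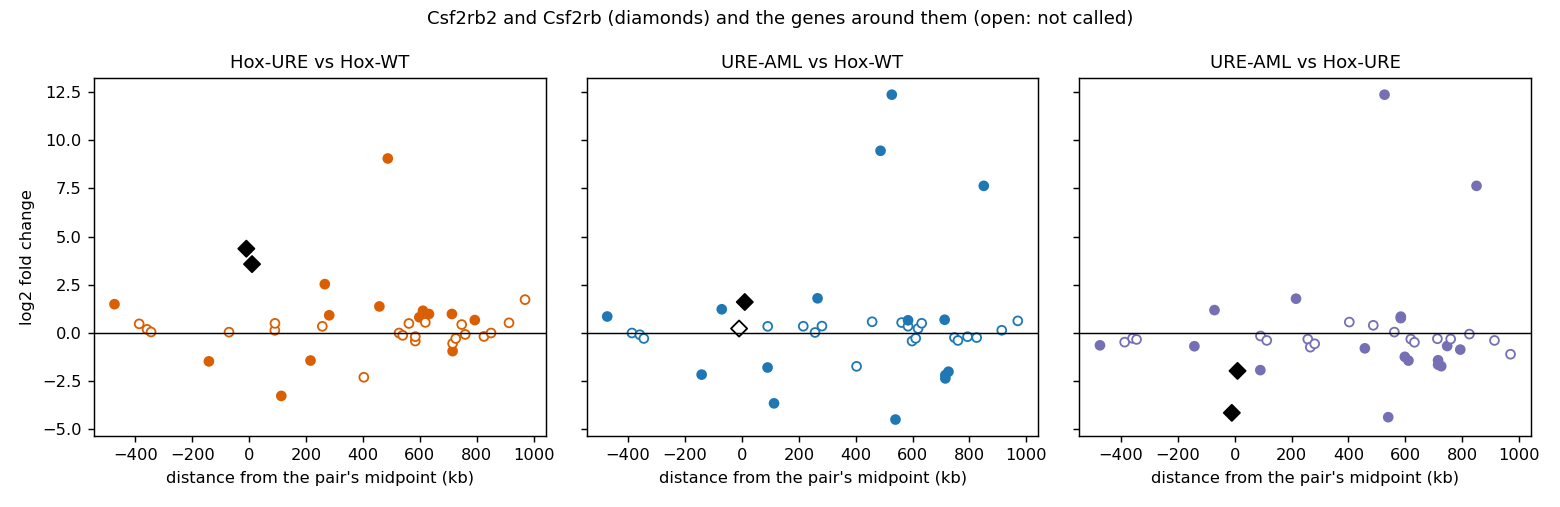
Log2 fold change of *Csf2rb2* and *Csf2rb* (diamonds) and of the other 36 tested genes around them, against the distance in kilobases of each gene's start from the midpoint between the pair, in the 3 comparisons. Filled symbols were called, and in Hox-URE against Hox-WT the nearest genes on both sides lie at or below 0.50 whereas the pair lies at 3.57 and 4.37.

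Transcripts of the ligands were at or under the floor. *Il3* and *Csf2* had 0 counts in all 9 libraries, and *Il5* had 0 in all but Hox-URE library 3, with 3 counts. A count of 0 allows up to 3 counts, or 0.104 to 0.153 CPM. Receptors for the other cytokines of the medium differed from *Il3ra*. *Kit*, the receptor for SCF, averaged 175 CPM in Hox-WT against 43.0 in Hox-URE and 97.0 in URE-AML, with log2 fold changes of -2.02 and -0.85 (edgeR adjusted p = 9.74e-07 and 0.000217). *Il6ra*, the alpha chain for IL-6, had 101 to 122 counts in Hox-WT and 0 to 1 in Hox-URE, a decrease of at least 25.7-fold (edgeR adjusted p = 1.77e-06), and in URE-AML its log2 fold change was -0.80 (edgeR adjusted p = 0.0367). *Il6st*, the signal chain of that receptor, varied between libraries, with 298, 205 and 377 counts in Hox-WT, 1, 90 and 6 in Hox-URE and 209, 87 and 117 in URE-AML, and was called lower in Hox-URE (log2 -2.94 ± 0.88, SE, edgeR adjusted p = 0.0173). Of 12 other cytokine receptor genes, these 3 included, 9 were tested, of which Hox-URE had 2 above Hox-WT and 6 below it, and URE-AML 1 above and 7 below. Of all genes, 15.9% and 20.2% were called lower in these comparisons, and *Csf1r* (13 to 28 counts in Hox-WT, 0 to 1 elsewhere) and *Epor* (19 to 34 counts in Hox-WT, 0 to 8 elsewhere) passed the filter through Hox-WT alone, so that their lower levels elsewhere were built into their selection. The higher genes were *Il2rg*, the common gamma chain, in both lines and *Crlf2* in Hox-URE, which fell in URE-AML (log2 -0.81, edgeR adjusted p = 0.00286). *Flt3*, the receptor for FLT3 ligand, averaged 108 CPM in Hox-WT and 14.2 CPM in Hox-URE and had 0 counts in URE-AML, a decrease of 7.59-fold and of at least 758-fold (edgeR adjusted p = 5.6e-06 and 4.23e-08). *Csf3r*, the receptor for granulocyte colony-stimulating factor, fell 8.92-fold in Hox-URE and 2.29-fold in URE-AML, from 26.9 to 27.9 CPM down to 2.91 to 3.27 CPM and to 6.79 to 17.0 CPM (edgeR adjusted p = 1.03e-05 and 0.0025).

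Downstream of the receptors, 31 genes of the JAK-STAT pathway and its branches were listed, and all were tested. In Hox-URE against Hox-WT 13 were higher and 5 lower, with a median log2 fold change of 0.40. In URE-AML against Hox-WT 9 were higher and 8 lower, with a median of 0.08. In URE-AML against Hox-URE 5 were higher and 13 lower, with a median of -0.34. The medians over all genes were near 0. Over the whole fit, the shares called were 21.3% up and 15.9% down in the first of these comparisons, 23.0% and 20.2% in the second and 20.3% and 22.4% in the third, and the counts of the smaller groups that follow are to be read against the same shares.

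Among the kinases, *Jak2*, which signals from the beta chain, averaged 30.3 CPM in Hox-WT, 58.0 CPM in Hox-URE and 31.1 CPM in URE-AML. It rose in Hox-URE (log2 0.94 ± 0.12, SE, edgeR adjusted p = 0.000128), as did *Jak1* (log2 0.65, adjusted p = 0.000488), and in URE-AML *Jak2* did not pass the test (log2 0.04, adjusted p = 0.818). *Lyn*, a kinase of the SRC family, passed the test in neither UREd/d line against Hox-WT (log2 0.42 and 0.16, adjusted p = 0.0964 and 0.509). *Fes*, another tyrosine kinase, fell in URE-AML from 120 to 61.9 CPM (log2 -0.96, edgeR adjusted p = 7.19e-05) and stayed within a fold change of 1.5 in Hox-URE (log2 0.34, adjusted p = 0.0337). Of the STAT genes, *Stat5a*, *Stat5b* and *Stat3* stayed within a fold change of 1.5 in Hox-URE against Hox-WT (log2 -0.49, 0.44 and -0.45, edgeR adjusted p = 0.0338, 0.00948 and 0.00938). *Stat5a* fell in URE-AML by 1.97 (log2, edgeR adjusted p = 6.54e-06), with means of 46.9 CPM in Hox-WT and 11.9 CPM in URE-AML.

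Of 9 adaptor genes, *Gab2* rose in Hox-URE (log2 0.87) and *Cbl*, *Pik3cd* and *Pik3r1* fell (1.57-fold, 2.01-fold and 1.63-fold). *Cbl* encodes a ubiquitin ligase that ends receptor signals, and *Pik3cd* and *Pik3r1* encode subunits of phosphoinositide 3-kinase. In URE-AML the same 3 genes fell (2.46-fold, 1.72-fold and 2.07-fold), as did *Grb2* (log2 -1.32), whereas *Ywhaz* and *Ptpn11* rose (log2 0.97 and 0.70).

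The inhibitors of the pathway included *Socs3*, the gene with the largest rise of the 31 in either line against Hox-WT. Of 7 inhibitor genes, 6 rose in Hox-URE, the exception being *Ptpn6* (log2 0.09, edgeR adjusted p = 0.788), and in URE-AML 4 rose and 1 fell. *Cish*, which STAT5 induces and whose product blocks the receptor, had 18.1, 25.0 and 22.7 CPM in Hox-WT, 139, 110 and 126 CPM in Hox-URE, and 156, 131 and 120 CPM in URE-AML. The UREd/d libraries were all above Hox-WT and overlapped each other. *Cish* rose by 2.51 ± 0.15 and 2.63 ± 0.15 in these lines (log2, SE, edgeR adjusted p = 6.56e-07 and 2.51e-07). *Socs1* rose by 2.66 and 2.73, and *Socs3* by 2.91 and 3.87 (log2), all suppressors of cytokine signalling. Within Hox-URE *Socs1* varied, at 6.48, 11.6 and 26.0 CPM in libraries 1 to 3 (SE of 0.43 on its log2 rise there). Between the UREd/d lines *Cish* and *Socs1* did not pass the test (log2 0.12 and 0.06, edgeR adjusted p = 0.489 and 0.907), although *Il3ra* and *Csf2rb* differed there. *Socs2* and *Sh2b3*, whose product binds JAK2, rose in Hox-URE (2.83-fold and 2.46-fold), and in URE-AML *Socs2* was not called (log2 0.33) and *Sh2b3* was lower (log2 -0.59).

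Of 8 target genes, 4 rose and 2 fell in Hox-URE and 3 rose and 1 fell in URE-AML, each against Hox-WT, where 37.2% and 43.2% of all genes were called. *Bcl2l1*, which encodes the survival protein BCL-XL, rose by 1.39 ± 0.13 in Hox-URE and 0.68 ± 0.13 in URE-AML (log2, SE, edgeR adjusted p = 1.49e-05 and 0.00131), with the lines in the order of *Il3ra* and *Csf2rb*. *Ccnd3*, a D-type cyclin, rose by 0.94 and 1.64 (log2), more in URE-AML. *Osm*, the cytokine oncostatin M, rose by 2.76 in Hox-URE and had -0.25 in URE-AML (log2, edgeR adjusted p = 3.59e-06 and 0.340). *Pim2*, a survival kinase, rose by 0.81 in Hox-URE, and *Pim1* by 0.75 in URE-AML (log2). *Myc* fell in both lines (log2 -1.09 and -0.83), and *Ccnd2* fell in Hox-URE (log2 -1.71). *Mcl1* was not called in either (log2 0.24 and 0.57).

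**Figure D5:**
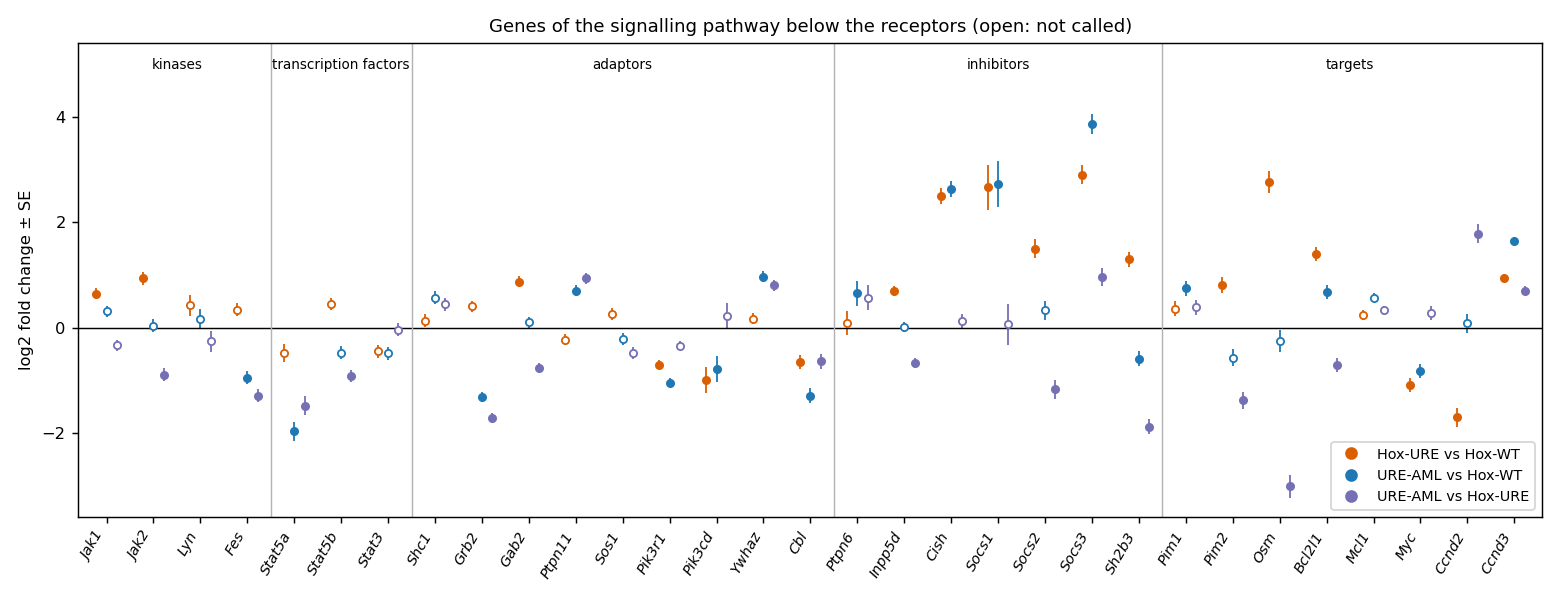
Log2 fold changes with SE of the 31 signalling genes by role, with filled points for called changes, in the 3 comparisons. *Cish*, *Socs1* and *Socs3* lie above 2.5 in both UREd/d lines against Hox-WT.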

How the data were processed

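Stranded poly-A libraries, 3 for each of 3 mouse lines, were sequenced. Per the labels, the authors quantified reads with Salmon on GRCm38, and the values deposited are estimated counts of each gene, unscaled and rounded to whole numbers. How reads of near copies were divided, and the annotation release for these libraries, are not given in the sources used here.

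Lines came from the labels. Counts of all 9 libraries were fitted together in edgeR 4.0.16 (R 4.3.3; quasi-likelihood F test, line as the only factor, TMM scaling, filterByExpr with a minimum count of 10), with Benjamini-Hochberg adjustment over 13082 genes. SE is the absolute log2 fold change over the square root of F. Library totals behind CPM were multiplied by TMM factors. Folds against lines at or under 3 counts are bounds, against the floor of the shallowest library of that line. Lengths, exons and coordinates came from GENCODE M21, promoters from RefSeq, and identity from a Biopython 1.88 alignment. The code was tested on simulated data.

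The members, pathway lists and marker lists were chosen with earlier results of these data known. The text names the members, *Spi1*, ligands, receptors for the medium's cytokines, the 3 genes most like each member and the 3 nearest on each side of the beta chain pair. Of the called or undetected list genes it names some but not all. *Lyn*, *Mcl1*, *Stat3*, *Alox15* and *Fcer1a* fall outside that rule and were named after their values were seen. Alternatives included other scalings and filters, DESeq2 1.42.0, glmTreat, a replicate block and leaving out each library. An item of the lists is not reported here.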

Additional observations from a re-analysis of the deposited data

How the results depend on the processing

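The direction and the call of each chain held in all 3 comparisons under other scalings, filters and libraries left out, with DESeq2 and with only the 6 libraries compared. The exceptions were *Csf2ra* between the UREd/d lines in a test against a fold change of 1.5, and *Il5ra*, which had no value where at least 10 counts were required in every library, nor between the UREd/d lines when only their 6 libraries, all at 0, were compared. Against Hox-WT, 4 to 5 chains were called for Hox-URE and 3 to 4 for URE-AML, and between the UREd/d lines 3 to 4. The mean share of *Csf2rb2* in Hox-URE less that in Hox-WT turned to -0.223 percentage points without Hox-URE library 3 and ranged up to 10.6 points when other libraries were left out. That library was also the one whose removal moved the fold change of *Csf2rb2* most. The share has at most 3 libraries a group, so its p could not fall below 0.1. Levels per kilobase moved with the transcript length assumed: with the longest transcripts *Csf2rb* was at 33.5 CPM per kilobase in Hox-WT and 398 in Hox-URE, because its longest transcript (4900 bases) exceeds the median of its coding transcripts (2083 bases).

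Libraries of different lines that share a number deviated together only weakly (r of 0.01 to 0.27 across genes), so the numbers were not taken as a pairing. In 17 of 18 comparisons a library correlated best with its own number, which is a hint from the data and not from the design. With a replicate block the counts of chains called were 5, 4 and 4 and those of all genes 4908, 5679 and 5584, and no call of a chain changed.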
